A study of Homo sapiens with 2 samples.

Results

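The wide peaks described here were the 541 peaks of at least 1500 bp among the 10342 peaks that the authors called by brachyury ChIP-seq in the human breast cancer line MDA-MB-231. They were selected on their width, the end minus the start in the deposited list, so that width itself is a description and not a finding. The list came from 1 comparison of 2 libraries of wild-type cells. The first is labelled with the line alone and was taken as the immunoprecipitate by inference, and the second is labelled as input with no antibody. There were no replicates, the read depth of both libraries is unknown, and the target of the antibody is known from the methods of the study only. The peaks from 700 to under 1500 bp (8980 peaks) served for comparison, and another 821 peaks were narrower than 700 bp.

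Brachyury, a T-box transcription factor, specifies posterior mesoderm and notochord in the embryo and is expressed again in several carcinomas. A sequence-specific factor usually occupies short DNA elements, and its ChIP-seq signal forms narrow summits whose extent is set mainly by the length of the sequenced fragments. A peak caller such as MACS joins overlapping enriched windows into 1 peak, so a wide peak is a stretch along which reads from the immunoprecipitate stayed above the background. Width and score come from the same call on the same 2 libraries. Differences between the classes are therefore given as descriptions with intervals and without tests. All intervals on shares are Wilson 95% intervals, which describe counting error alone and take each peak as independent of the others. Positions are on hg19, the build named in the submitters' processing notes. Genes and sequence at the peaks were not analysed here.

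Wide peaks were 5.23% of the list (interval 4.82 to 5.68) and held 10.1% of the bases covered by peaks. The median of their widths was 1767 bp (interquartile range 1607 to 2005 bp), against 965 bp in the comparison peaks. Most of them were thus not far above the limit. A width of at least 2000 bp was reached by 139 peaks, and a width of at least 3000 bp by 21 peaks. The 3 members closest to the limit were a peak of 1500 bp on chromosome 13 (score 50.47) and peaks of 1501 bp on chromosomes 11 (score 62.54) and 15 (score 108.72). The 3 peaks that just missed it were narrower than the limit by 1 bp, on chromosomes 11 (score 88.23), 3 (score 51.68) and 8 (score 63.58). The scores on both sides of the limit overlapped.

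The 10 widest peaks lay on only 5 chromosomes, and 5 of them lay on chromosome 5. The widest, at chr2:91606403-91615046, spanned 8644 bp with a score of 73.88. It stood almost alone, with 1 other peak within 500 kb on either side. The second, chr5:21565196-21571365, spanned 6170 bp and scored 50.05, barely above the lowest score of the list, 50. The third, chr19:27884371-27890423, spanned 6053 bp (score 77.96) and was the first peak after the longest peak-free interval of chromosome 19. Chromosome 5 contributed chr5:22148361-22153059 with 4699 bp (score 52.45), and the neighbours chr5:17421756-17426224 with 4469 bp (score 147.27) and chr5:17501151-17505573 with 4423 bp (score 116.87), which were 74.9 kb apart. The remaining peaks among the 10 were chr21:9890264-9894463 with 4200 bp (score 73.45), chr2:133005074-133009260 with 4187 bp (score 91.01), chr5:40332779-40336526 with 3748 bp (score 75.47) and chr15:20572969-20576585 with 3617 bp (score 79.22). The peak on chromosome 15 had no other peak within 500 kb. Among these 10 peaks, scores ran from 50.05 to 147.27, and the widest peaks did not carry the highest scores.

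Wide peaks were spread very unevenly over chromosomes. Chromosomes 5 and 8 together held 246 of them, which is 45.5% of the wide peaks against 14.4% of all peaks. On chromosome 5, 143 of 886 peaks were wide (16.1%, interval 13.9 to 18.7), and on chromosome 8, 103 of 601 (17.1%, interval 14.3 to 20.4). The highest share among the 23 chromosomes with at least 50 peaks was found on chromosome 22, with 15 of 69 peaks (21.7%), but its interval of 13.6 to 32.8 overlapped those of chromosomes 5 and 8. Chromosome 20 followed with 20 of 244 peaks (8.20%, interval 5.37 to 12.3) and chromosome 2 with 44 of 839 (5.24%, interval 3.93 to 6.97). In 13 chromosomes the share was below 3%. Chromosome 3, which carried the most peaks of all, had 37 wide peaks among 1003 (3.69%, interval 2.69 to 5.04). Chromosome 17 had 4 among 297 (1.35%) and chromosome 7 had 6 among 398 (1.51%). Chromosome X had none among 100 peaks, which allows a share of up to 3.70% by the Wilson interval, and its widest peak measured 1329 bp. The widest peak of a chromosome stayed under 2000 bp on chromosomes 4 (1948 bp), 7 (1939 bp), 13 (1922 bp) and 17 (1965 bp), as it did on X, and measured between 2042 bp on chromosome 12 and 8644 bp on chromosome 2 on the others. Outside chromosomes 5 and 8, 295 of 8855 peaks were wide (3.33%, interval 2.98 to 3.73).

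**Figure D1:**
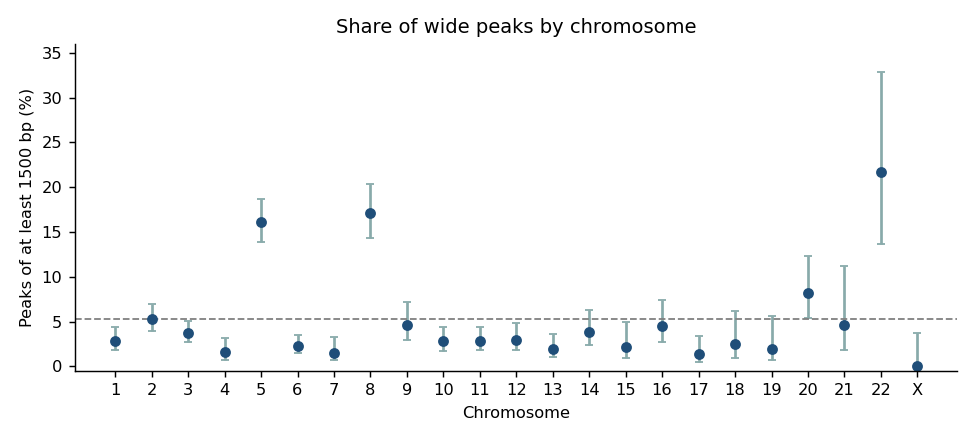
Percentage of peaks of at least 1500 bp on each chromosome with at least 50 peaks; points are the share, bars the Wilson 95% interval and the dashed line the share in the whole list (5.23%). Chromosomes 5, 8 and 22 lie at 16.1%, 17.1% and 21.7%, with intervals clear of the dashed line, as is that of chromosome 20, and chromosome X lies at 0.

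The excess on chromosome 5 was a property of 1 arm. The longest interval without a peak on this chromosome, 3.16 Mb from 46370072 to 49529880, contains the centromere, so that the peaks before it belong to the short arm and those after it to the long arm. On the short arm 122 of 229 peaks were wide (53.3%, interval 46.8 to 59.6). On the long arm only 21 of 657 were (3.20%, interval 2.10 to 4.84), close to the share of 3.33% outside chromosomes 5 and 8. The short arm thus held 22.6% of the wide peaks and 2.21% of all peaks. On this chromosome the density of peaks did not follow the widths. It was 4.94 peaks per Mb on the short and 5.01 peaks per Mb on the long arm. The change coincided with this interval. Of the last 10 peaks of the short arm 4 were wide and their median width was 1427.5 bp. The first 10 peaks of the long arm measured 753 to 1090 bp. In all, 81 peaks of ordinary or narrow width followed the centromere before the first wide peak of the long arm, chr5:69185025-69187380, which lay 19.7 Mb beyond the interval and was 2356 bp wide (score 68.59).

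**Figure D2:**
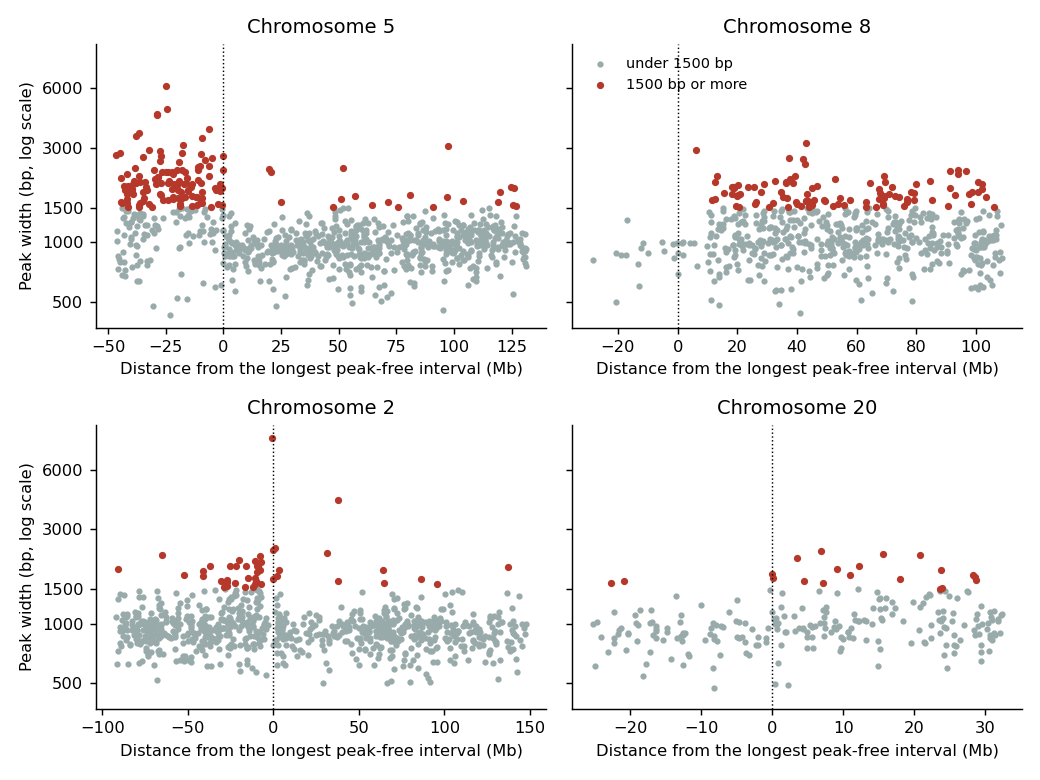
Width of each peak in bp (log scale) against its distance in Mb from the longest peak-free interval of chromosomes 5, 8, 2 and 20; negative distances lie before the interval, the dotted line marks the interval, and red points are peaks of at least 1500 bp. On chromosome 5 red points fill the left side (122 of 229 peaks) and are sparse on the right (21 of 657 peaks).

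The short arm of chromosome 5 was not set apart by a few very wide peaks, but by a shift of nearly its whole distribution. Over all its peaks the median width was 1548 bp (interquartile range 1161 to 1982 bp), against 973 bp (864 to 1096 bp) on the long arm. A width of at least 1000 bp was found in 85.2% of the short-arm peaks and in 42.9% of the long-arm peaks. A width of at least 2000 bp was found in 53 of 229 short-arm peaks (23.1%, interval 18.2 to 29.0) and in 4 of 657 long-arm peaks (0.609%, interval 0.237 to 1.55). Of the 21 peaks of at least 3000 bp, 9 lay on this arm. The share of peaks under 700 bp, however, was close to that of the long arm, at 5.24% (interval 3.02 to 8.93) and 5.78% (interval 4.24 to 7.84). The shift was present along the arm as a whole. In windows of 10 Mb from the beginning of the chromosome, the share of wide peaks was 42.2% (27 of 64), 55.1% (27 of 49), 68.9% (31 of 45), 53.5% (23 of 43) and 45.2% (14 of 31), the last window reaching past the centromere. Among all windows with at least 20 peaks, these 5 were the only ones in which 40% or more were wide.

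Chromosome 8 showed a milder shift over a longer distance. Its longest peak-free interval, 8.19 Mb from 28885182 to 37078741, lies within the short arm, and none of the 17 peaks before it was wide (interval 0 to 18.4%). Peaks were sparse on that side, at 0.599 per Mb against 5.37 per Mb after the interval. After it 103 of 584 peaks were wide (17.6%, interval 14.8 to 20.9), and the median width of all peaks there was 1070 bp (interquartile range 913 to 1382 bp). Peaks of at least 2000 bp were rarer here than on the short arm of chromosome 5, but more frequent than in the list outside both stretches. They were 20 of these 584 peaks (3.42%, interval 2.23 to 5.23), against 23.1% on that arm and 0.693% (interval 0.545 to 0.880) outside both. Peaks from 1200 to under 1500 bp made up 20.2% (interval 17.1 to 23.7) here and 20.1% (interval 15.4 to 25.8) on that arm. Outside both stretches they made up 8.79% (interval 8.24 to 9.38). The widest peak of the chromosome, chr8:80184334-80187526, measured 3193 bp (score 99.03). Windows with a share of 10% or more ran from 40 to 90 Mb and again from 100 to 140 Mb, with the highest value of 26.3% (15 of 57) from 100 to 110 Mb. Between these stretches, from 90 to 100 Mb, 4 of 63 peaks were wide.

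**Figure D3:**
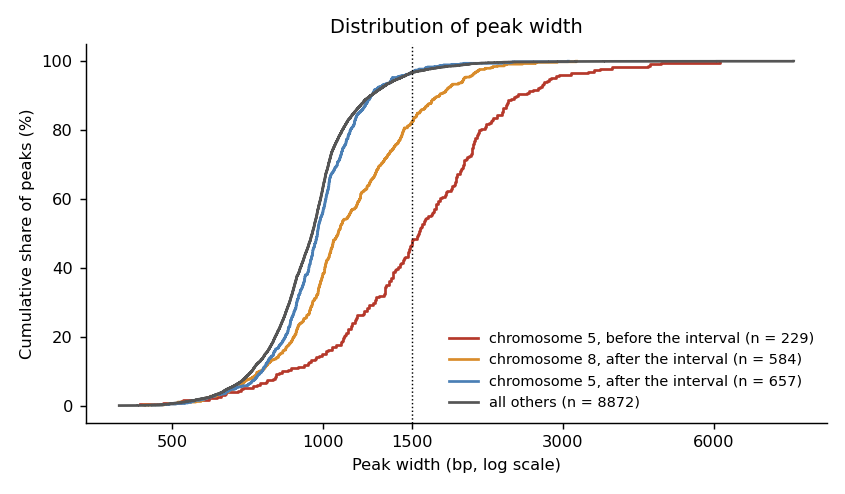
Cumulative percentage of peaks against peak width in bp (log scale) for the short arm of chromosome 5 (before its longest peak-free interval), chromosome 8 after its interval, the long arm of chromosome 5 and all other peaks; the dotted line marks 1500 bp. The curve of the short arm of chromosome 5 is displaced to the right (median 1548 bp), that of chromosome 8 lies between (median 1070 bp), and that of the long arm of chromosome 5 (median 973 bp) runs with the others.

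Shorter stretches rich in wide peaks were seen on other chromosomes. Their limits were set after the list had been seen. Chromosome 2 had 27 wide peaks among 160 (16.9%, interval 11.9 to 23.4) from 60 Mb to its longest peak-free interval, which contains the centromere, and 17 among 679 (2.50%, interval 1.57 to 3.97) on the rest. On chromosome 22, 14 of 46 peaks beyond 40 Mb were wide (30.4%, interval 19.1 to 44.8), but only 1 of 23 before it. The widest of these, chr22:48518060-48520888, measured 2829 bp (score 88.5). On chromosome 9, 15 of 105 peaks from 20 to 70 Mb were wide (14.3%, interval 8.85 to 22.2), and 3 of the remaining 282 (1.06%). The long arm of chromosome 20 had 17 of 162 (10.5%, interval 6.66 to 16.2) and its short arm 3 of 82 (3.66%, interval 1.25 to 10.2), intervals that overlap. On chromosomes 2, 20 and 22, the side of the peak-free interval with the larger share of wide peaks was also denser in peaks. Densities were 4.42 against 2.94, 5.01 against 3.25 and 2.60 against 1.29 peaks per Mb. On chromosome 9 the reverse held, with 2.34 peaks per Mb on the richer side and 3.67 on the other. A relation between density and width was not tested. Of the windows of 10 Mb with at least 20 peaks, 24 had a share of 10% or more, 6 of them on chromosome 5, 9 on chromosome 8 and 9 elsewhere. These 24 windows held 52.9% of the wide peaks and 11.3% of all peaks, which follows in part from choosing them by their share. No wide peak was found in 82 of the windows.

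A second setting of wide peaks was beside long intervals without peaks. These intervals are not of the same kind on each chromosome. Those of chromosomes 2 and 5 contain the centromere, whereas that of chromosome 8 lies within an arm. The flanks were not separated by kind, so chromosomes with and without wide peaks in them are not compared like for like. Outside chromosomes 5 and 8, 29 of 295 wide peaks (9.83%, interval 6.93 to 13.8) lay within 2 Mb of an edge of the longest peak-free interval of their chromosome, against 292 of 7833 comparison peaks (3.73%, interval 3.33 to 4.17). Over the whole list the shares were 6.47% (interval 4.69 to 8.86) and 3.47% (interval 3.12 to 3.87). Among peaks at or above the median score of the list they were 5.03% (interval 3.28 to 7.63) and 3.75%, and the interval for wide peaks contained the share of comparison peaks. On chromosome 1, 5 of 11 peaks in these flanks were wide. They included chr1:121467604-121469170, the last peak before an interval of 21.8 Mb, and chr1:145068873-145071982 with 3110 bp (score 51.34). On chromosome 2, 4 of 9 such peaks were wide, among them the widest of the list. On chromosome 21, 4 of 14 were, all before the interval, at widths of 4200, 3277, 3331 and 2815 bp, and none of the 78 peaks after it. On chromosome 10, chr10:42452113-42454315 and chr10:42613699-42616761 were the first peaks after the interval and measured 2203 and 3063 bp. Chromosomes 3, 11 and 12 had no wide peak among 24, 24 and 19 peaks in these flanks. Chromosomes 7, 13, 15, 18, 22 and X had none either, among 4 to 16 peaks each. Chromosome Y carried only 4 peaks, all of them in such flanks, and 2 were wide (3174 and 1615 bp).

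Wide peaks near the ends of the peak-bearing span were fewer. The first and last peak of a chromosome stand in for its ends here. On chromosomes 14, 15, 21 and 22 the wide peaks near the first peak began only at 19740241, 20572969, 9890264 and 16111658. They were therefore near the end of the span but far from the beginning of the chromosome. Within 1 Mb of the first or last peak of the chromosome lay 20 wide peaks (3.70%, interval 2.41 to 5.64) and 178 comparison peaks (1.98%, interval 1.71 to 2.29). Among peaks at or above the median score the shares were 2.76% (interval 1.55 to 4.88) and 2.09%, and again the interval contained the comparison value. This setting overlaps the one beside the longest peak-free intervals. Wide peaks of 4200, 3277 and 3331 bp on chromosome 21 and of 3174 and 1615 bp on chromosome Y were counted in both. The overlap was not counted for comparison peaks. The wide peak at chr5:9815-12565, 2751 bp wide, had the highest score of the whole list (1102.83). On chromosome 4, where just 7 wide peaks were found, 3 of them lay together in the last 1 Mb, from chr4:190551830-190553744 to chr4:190672456-190674403, with scores of 52.22 to 53.95. On chromosome 22, 3 lay in the last 1 Mb, of which chr22:50294930-50297554 was 2625 bp wide (score 101.57). On chromosome 14 the 3 wide peaks near the first peak, of 1874, 2064 and 1935 bp, followed each other with no other peak between them.

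Wide peaks had another wide peak nearby more often than comparison peaks did. Another wide peak was found within a gap of 100 kb for 122 of 541 wide peaks (22.6%, interval 19.2 to 26.3) and for 338 of 8980 comparison peaks (3.76%, interval 3.39 to 4.18). Much of this came from the chromosomes rich in them. Without chromosomes 5 and 8 the shares were 11.2% (interval 8.08 to 15.3) and 2.55% (interval 2.23 to 2.93). Within the short arm of chromosome 5 they were 45.1% (interval 36.5 to 53.9) and 41.1% (interval 31.7 to 51.1), and the intervals overlapped. On chromosome 8 after the interval they were 33.0% (interval 24.7 to 42.6) and 18.0% (interval 14.7 to 21.9). The distance to the nearest peak of any width differed less, with a median gap of 68.6 kb (95% interval of the median 60.8 to 78.0) for wide and 79.2 kb (77.1 to 82.0) for comparison peaks. Outside chromosomes 5 and 8 the medians were 77.4 kb (66.1 to 89.4) and 83.2 kb (80.2 to 85.8), and their intervals overlapped. Within 500 kb on each side a wide peak had a median of 5 other peaks (interquartile range 3 to 7) and a comparison peak 4 (2 to 6).

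**Figure D4:**
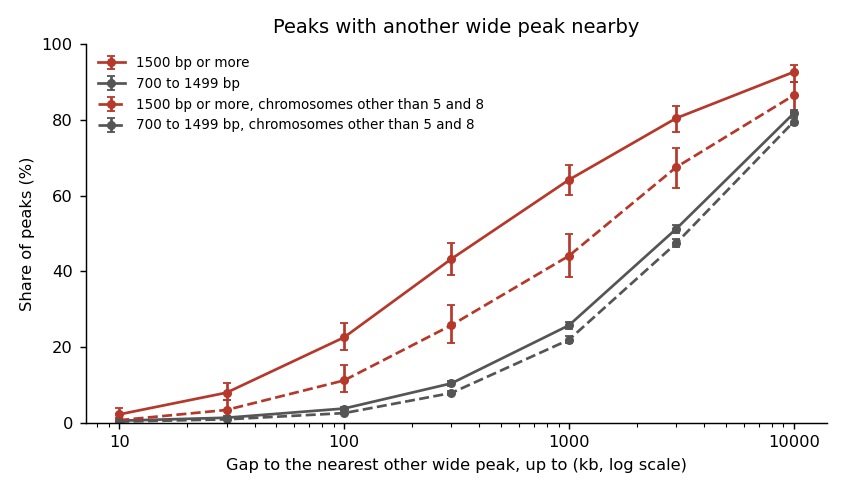
Percentage of peaks with another wide peak within a given gap in kb (log scale), for wide peaks (red) and peaks from 700 to under 1500 bp (grey), over all chromosomes (solid) and without chromosomes 5 and 8 (dashed); bars are Wilson 95% intervals. At 100 kb the shares are 22.6% and 3.76% over all chromosomes and 11.2% and 2.55% without chromosomes 5 and 8.

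Runs of adjacent wide peaks showed the same pattern. Most wide peaks, 330 of 541 (61.0%), had ordinary or narrow peaks as next neighbours on both sides or stood at the end of the list of a chromosome. The other 211 formed 79 runs of at least 2. Each of the 7 runs of 5 or more wide peaks lay on chromosome 5, and no run on another chromosome was longer than 3. The longest held 10 peaks over 1.91 Mb, from 18223812 to 20130098. Their widths ranged from 1644 to 2908 bp and their scores from 50.05 to 117.46, so that neighbours in the run differed widely in score. Its seventh and eighth peaks, chr5:19222566-19224551 and chr5:19224800-19227537, were separated by just 248 bases. A run of 8 covered 0.689 Mb, from 4247760 to 4936396. Pairs of wide peaks less than 10 kb apart numbered 6, of which 5 lay on the short arm of chromosome 5. The sixth was the pair chr2:84311779-84313973 and chr2:84314817-84316689, with 843 bases between them.

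The score, which was treated as -10 x log10 p by inference, was higher in wide than in comparison peaks in the list as a whole. The median was 68.34 (interquartile range 58.04 to 88.6) in wide peaks and 57.7 (53.3 to 65.9) in comparison peaks, a difference of 10.64. The 821 peaks under 700 bp scored as high as the wide peaks, with a median of 69.82 (95% interval of the median 69.27 to 69.82, against 66.7 to 71.5 in wide peaks). Scores of at least 100 were reached by 73 wide peaks (13.5%, interval 10.9 to 16.6) and by 151 comparison peaks (1.68%, interval 1.44 to 1.97). At the lower end, 17.0% of wide and 35.3% of comparison peaks scored under 55. The 5 highest scores among wide peaks were 1102.83, at the beginning of chromosome 5, 230.44 at chr13:108757942-108759689, 180.43 at chr11:90321883-90323449, 177.9 at chr5:9759007-9762556 and 172.93 at chr2:76258083-76260028. The 5 lowest, from 50.03 to 50.1, belonged to 4 peaks on the short arm of chromosome 5 and 1 on chromosome 8. Pooled over all chromosomes, Spearman's rho of width and score was 0.084 over the 541 wide peaks and 0.11 over the 8980 comparison peaks. Both come from the same 2 libraries and were not computed by arm. Wide peaks on the short arm of chromosome 5 had medians of 1975 bp and 61.9. Outside that arm and chromosome 8 after its interval, the medians were 1730 bp and 75.9. A pooled rho cannot show the relation within each, nor a fall followed by a rise.

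This gap in score was small on the short arm of chromosome 5, larger on chromosome 8 after its interval and largest in the remaining list. On the short arm of chromosome 5, wide peaks had a median score of 61.9 (95% interval of the median 58.4 to 65.8) and comparison peaks 60.7 (57.3 to 63.8), a difference of 1.14. On chromosome 8 after the interval the medians were 65.0 (63.2 to 67.4) and 59.0 (57.6 to 60.7), a difference of 6.0. For the 316 wide peaks elsewhere the median was 75.9 (72.0 to 80.4), against 57.6 (57.4 to 57.9) for 8446 comparison peaks, a difference of 18.2. These 316 peaks include the stretches rich in wide peaks on chromosomes 2, 9, 20 and 22, and were not split into clustered and isolated peaks. Scores of at least 100 were reached by 17.7% (interval 13.9 to 22.3) of these 316 wide peaks and by 7.38% (interval 3.93 to 13.4) of those on the short arm of chromosome 5. Among 18 chromosomes with at least 5 wide peaks, the median score was higher in wide than in comparison peaks on 17, by 2.92 on chromosome 22 up to 37.95 on chromosome 13. The exception was chromosome 4 (53.95 against 58.07, 7 wide peaks). Chromosomes 22, 5 and 8, where wide peaks were commonest, had differences of 2.92, 5.22 and 6.29, while chromosomes 3, 9 and 10 had 26.9, 24.2 and 24.2. The order of the differences did not follow the order of the shares. Chromosomes 20 and 2, next in share of wide peaks, had differences of 19.985 and 20.71, and chromosome 6, where wide peaks were rare, had a small one (4.40, 19 wide peaks).

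**Figure D5:**
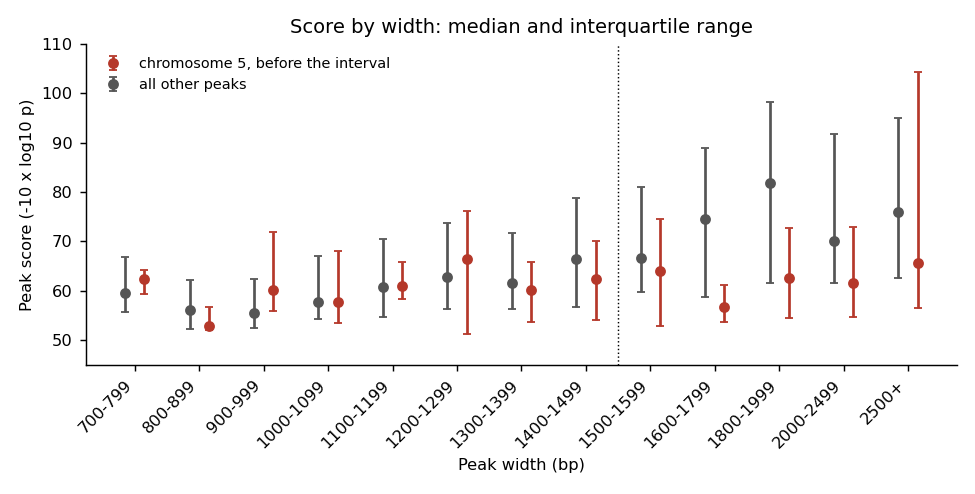
Peak score (treated as -10 x log10 p) by peak width in bp on the short arm of chromosome 5 (red) and in all other peaks (grey); points are medians, bars the interquartile range, and the dotted line marks 1500 bp. From 1800 to under 2000 bp the median is 62.5 on the short arm of chromosome 5 (32 peaks) and 81.9 elsewhere (88 peaks), while from 1000 to under 1100 bp both are 57.7 (11 and 1723 peaks). From 1500 to under 1600 bp the medians are closer, at 63.9 (17 peaks) and 66.6 (113 peaks).

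With width classes taken more finely, the median score outside the short arm of chromosome 5 first fell and then mostly rose with width up to 2000 bp. It was 59.6 at 700 to under 800 bp (1110 peaks), 56.2 at 800 to under 900 bp (1992 peaks) and 55.5 at 900 to under 1000 bp (2356 peaks). From there it increased to 66.4 at 1400 to under 1500 bp (222 peaks), with a dip to 61.6 at 1300 to under 1400 bp. It reached 81.9 at 1800 to under 2000 bp (88 peaks). Beyond that it was 70.1 at 2000 to under 2500 bp (63 peaks) and 75.9 from 2500 bp upward (23 peaks). The limit of 1500 bp lay within this rise. On the short arm of chromosome 5 the median ran between 56.7 and 65.7 in the 5 classes from 1500 bp upward, within the range of 52.8 to 66.4 of its narrower classes.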

How the data were processed

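The data were from ChIP-seq of wild-type cells of the line MDA-MB-231, with 1 library of immunoprecipitated DNA and 1 of input DNA. Per the labels, the submitters' processing notes name Bowtie2 2.1.0 and hg19. The deposited list holds peaks called by MACS in the first library against the second, with a p-value limit of 1e-05 and model fold limits of 10 and 30 in its name. The deposited score was treated as -10 x log10 p, because its minimum was exactly 50. The handling of duplicate reads and artefact-prone regions is not given in the sources used here. Start and end were used as deposited, 1 was added to each start for printing, and width was end minus start. Annotation tables on another build were not used, so gene and sequence features that had been planned were not analysed here.

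Peaks were grouped by width (at least 1500 bp, and 700 to under 1500 bp). Gaps ran from edge to edge, local numbers used midpoints within 500 kb, and the longest peak-free interval of each chromosome divided its peaks. Shares have Wilson intervals and medians have order-statistic intervals at a confidence of 95%. No test was applied. Members, classes and lists were chosen with earlier results of these data known, and the named peaks followed a rule on width, score and distance (the 10 widest, the 5 highest and 5 lowest scores, the 3 on each side of the limit, the widest of each chromosome and pairs within 10 kb). Other peaks were named after their values had been seen. The functions were tested on simulated lists. Python 3.11.15, numpy 2.4.6, pandas 2.3.3, scipy 1.17.1 and matplotlib 3.10.9 were used. Read depth is unknown and its effect on precision cannot be given.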

Additional observations from a re-analysis of the deposited data

How the results depend on the processing

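Of 40 values recomputed under alternative settings, 17 stayed within the 95% interval of the reported value and 23 moved. Among these 40 were 16 signed differences, of which 13 kept their direction and 3 became 0. A value at another limit or distance is a different quantity from the reported one. A share can only rise with a longer distance, and the share of wide peaks can only fall with a higher limit. The counts of 17 and 23 are therefore not a measure of stability. The share of wide peaks was 14.9% with a limit of 1200 bp, 1.34% with 2000 bp, 7.70% among peaks at or above the median score, 5.83% after merging peaks less than 1 kb apart and 3.33% without chromosomes 5 and 8, an alternative chosen after seeing the data. With a limit of 2000 bp the highest share by chromosome was 6.43%, on chromosome 5 in place of 22, and among peaks at or above the median score it was 21.98%, on chromosome 8. The difference in median score, 10.64 in the list, was 20.7 within chromosomes (median over 18) and 17.55 without chromosomes 5 and 8. The median gap to the nearest peak was shorter in wide peaks under each setting, with a difference of -26.2 kb among peaks at or above the median score, but of only -4.24 kb (interval -22.2 to 10.4) with a limit of 2000 bp and -5.71 kb (interval -17.0 to 6.26) without chromosomes 5 and 8, intervals that include 0. These intervals cover the uncertainty of the wide-peak median alone, with the comparison median taken as fixed. The difference of 1 in the median number of other peaks within 500 kb became 0 with a limit of 2000 bp, 0 in that higher-scoring part and 0 within chromosomes, and was 3 within 2 Mb. The share of wide peaks with another one nearby was 18.0% with a limit of 2000 bp (0.891% of comparison peaks). It was 15.6% in the higher-scoring part (2.99% of comparison peaks) and 11.2% without chromosomes 5 and 8 (2.55%). Within 1 Mb it was 64.1% (25.7% of comparison peaks). The share near the ends of the span was 5.76% with a limit of 2000 bp (1.98% of comparison peaks). It was 6.44% without chromosomes 5 and 8 (2.03% of comparison peaks) and 11.6% within 5 Mb (7.68%). In the higher-scoring part it was only 2.76%, where the interval of 1.55 to 4.88 contains the 2.09% of comparison peaks. The share beside the longest peak-free interval was 14.4% with a limit of 2000 bp (3.47% of comparison peaks). It was 9.83% without chromosomes 5 and 8 (3.73% of comparison peaks). Within 5 Mb it was 10.2% (interval 7.89 to 13.0), where comparison peaks reached 7.90%. In the higher-scoring part it was only 5.03%, where the interval of 3.28 to 7.63 contains the 3.75% of comparison peaks. Apart from the settings that alter a limit, a distance or the peaks included, the cause was not tested. No paired analysis was possible because the result is 1 list made from 1 pair of libraries. The planned sequence and gene features, and their alternative, were not run.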

Other observations

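The score of 69.82 was shared by 85 of the 10342 peaks and was also the median score of the 821 peaks under 700 bp. None of the 541 wide peaks had it. With so small a share in the list few would be expected to, so this is not read as a trait of wide peaks.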
